A study of Homo sapiens with 24 samples.

Results

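The genes of cholesterol and fatty acid synthesis were examined in clear cell renal cell carcinoma (ccRCC) cells exposed to interferon gamma (IFNγ) with or without silencing of PD-L1. They were 31 of the 39321 gene rows of the count table, chosen by their symbols: 7 enzymes of the mevalonate pathway, 11 enzymes of the sterol branch, 6 enzymes of fatty acid synthesis and desaturation, 5 regulators of the sterol regulatory element-binding proteins (SREBPs), the sterol carrier STARD4 and the oxysterol enzyme CH25H. RNA-Seq counts were available for 24 libraries, 12 labelled A-498 and 12 labelled 786-0, both established kidney carcinoma cell lines. Within each line, 3 libraries came from each of 4 groups. Cnsi cells received a non-targeting siRNA pool and no IFNγ, Cnsi IFNγ cells received the same pool and IFNγ, PD-L1si cells received an siRNA pool against PD-L1 and no IFNγ, and PD-L1si IFNγ cells received the PD-L1 pool and IFNγ. Every culture was therefore transfected with an siRNA pool at 20 nM, and IFNγ was given at 50 ng/mL for 24 hours, starting 24 hours after transfection. The labels call the PD-L1 groups knockouts, whereas the protocol describes transient silencing. One PD-L1 pool was used, and no source states that the replicates were separate cultures, so that p-values measure only the spread between these libraries. The lines were sequenced on different instruments, so that line and instrument cannot be told apart, and whether each line name belongs to its libraries was not tested here.

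Cells build cholesterol from acetyl-CoA through mevalonate, farnesyl diphosphate, squalene and lanosterol, and build fatty acids from acetyl-CoA through malonyl-CoA. The genes of both routes share the SREBP transcription factors. These are held in the endoplasmic reticulum by SCAP and the INSIG proteins when sterols are plentiful, and are carried to the Golgi and cleaved when sterols run low. Oxysterols such as 25-hydroxycholesterol, the product of CH25H, hold SREBPs back and are known from interferon-treated macrophages. ccRCC cells are known for storing cholesterol esters and triglycerides, which gives the tumor its clear cytoplasm.

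The sequence upstream of the start site is shown for 4 genes: MSMO1, which fell furthest with IFNγ in the libraries labelled A-498, SREBF2, whose gene product drives the sterol branch, and INSIG1 and STARD4, which rose with IFNγ in the libraries labelled 786-0. The sequences are from RefSeq on GRCh38.p14, written 5′ to 3′ on the strand of the gene, at chr4:165327419-165327666 (+), chr22:41832855-41833104 (+), chr7:155297628-155297775 (+) and chr5:111512591-111512785 (-). Bases inside the annotated gene were left out. Capitals mark the letters CCAAT or their complement ATTGG, the box bound by NF-Y, and the sterol element letters TCACNCCAC.
MSMO1: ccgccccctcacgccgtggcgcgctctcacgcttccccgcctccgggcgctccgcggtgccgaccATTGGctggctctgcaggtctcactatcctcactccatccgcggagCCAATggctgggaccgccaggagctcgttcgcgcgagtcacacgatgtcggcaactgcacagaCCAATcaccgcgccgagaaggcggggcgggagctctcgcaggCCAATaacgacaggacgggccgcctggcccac
SREBF2: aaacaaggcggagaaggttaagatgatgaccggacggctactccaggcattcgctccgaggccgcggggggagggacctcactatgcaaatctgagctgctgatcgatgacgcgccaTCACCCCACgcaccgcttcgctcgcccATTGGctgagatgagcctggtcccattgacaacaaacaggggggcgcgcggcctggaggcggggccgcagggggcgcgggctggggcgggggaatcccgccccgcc
INSIG1: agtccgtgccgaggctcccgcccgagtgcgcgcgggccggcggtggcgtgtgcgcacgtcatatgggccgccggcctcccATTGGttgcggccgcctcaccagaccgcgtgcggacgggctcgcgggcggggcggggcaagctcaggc
STARD4: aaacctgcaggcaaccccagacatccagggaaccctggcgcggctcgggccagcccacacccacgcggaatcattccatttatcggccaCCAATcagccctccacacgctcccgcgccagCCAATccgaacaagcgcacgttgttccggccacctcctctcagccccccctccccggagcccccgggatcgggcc

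Windows from 250 bases before to 50 bases after the RefSeq start site were at hand for 27 of the 31 genes, all but ACAT2, FDFT1, SQLE and FASN. Some genes had more than 1 window, and a gene was counted where any of its windows held the letters. CCAAT was found on either strand for 20 of the 27 genes (74.1%), against 39.7% of 27305 genes. Among enzymes of the mevalonate pathway and sterol branch it was found in 13 of 15 (86.7%), the exceptions being CYP51A1 and PMVK. The sterol element letters were found for 1 of the 27 genes, SREBF2, against 1.39% of all genes. Only the form TCACNCCAC was searched, so that other forms of the element would have been missed. The GC box GGGCGG, bound by Sp1 family factors, was found for 26 of 27 genes (96.3%), against 48.3% of all genes. The interferon motifs GAS and ISRE-like were searched as well, in 1 form each. GAS was found for 0 of the 27 genes, against 9.38% of all genes, and ISRE-like for 0 of 27, against 4.38%. Whether the shares of any motif differed from those of all genes was not tested. All motifs were searched on both strands, and these letters are a description of the windows, with no measurement of binding.

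**Figure D1:**
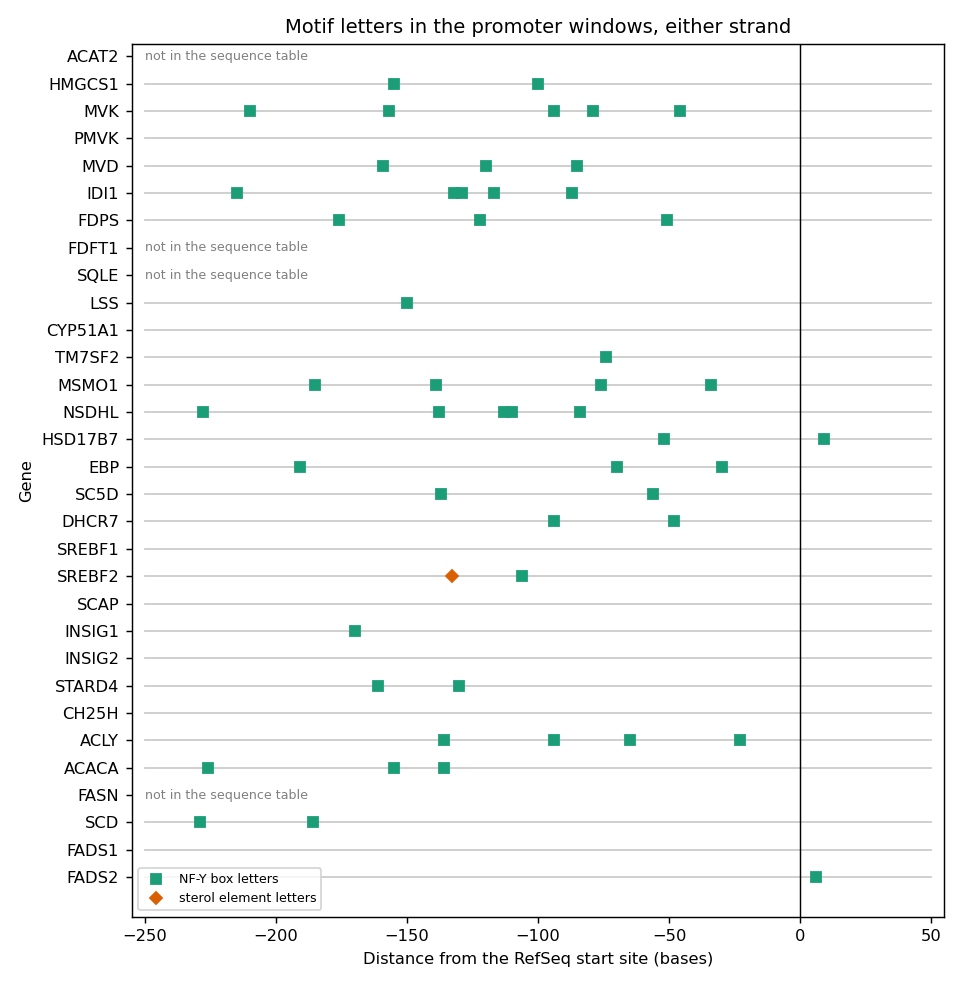
Positions of the NF-Y box letters (squares) and sterol element letters (diamond) in the promoter windows of the 31 genes, in bases from the RefSeq start site (vertical line). The squares lie in windows of 20 of the 27 genes available, all before the start site except in HSD17B7 and FADS2, and the only diamond is in SREBF2.

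The labels were checked against the genes they name. CD274, the gene of PD-L1, measured 191, 199 and 191 CPM (read counts scaled to the library total) in A-498 Cnsi IFNγ and 26.9, 28.5 and 27.7 CPM in A-498 PD-L1si IFNγ, a log2 fold change of -2.81 ± 0.055 with an adjusted p of 1.6e-29 (edgeR). In the libraries labelled 786-0 it measured 55.7, 59.6 and 65.8 CPM and 32.7, 30.8 and 30.6 CPM, a log2 fold change of -0.94 ± 0.070 with an adjusted p of 6.72e-10 (edgeR). In Cnsi without IFNγ, CD274 averaged 5.07 CPM in A-498 and 4.08 CPM in 786-0. With the PD-L1 pool and IFNγ it thus stayed above this untreated level, at means of 27.7 and 31.4 CPM. The PD-L1si comparisons are therefore of lowered, not absent, CD274 RNA. The IFNγ targets IRF1, CXCL10, GBP1 and TAP1 rose with IFNγ in both lines. Of 9 renal tumor markers none was at 0 in A-498, though CA9 averaged only 0.73 CPM in Cnsi. In 786-0 the rows of 2, PAX2 and NDRG1, were at 0 in every library and are taken as not measured, as explained below. The summed level of 6 markers of other cell types was 0.0388 to 0.335 CPM in A-498, with 3 or 4 of the 6 at 0 in each group, and in 786-0 it moved with IFNγ, from 0.751 to 0.926 CPM in Cnsi to 1.18 to 1.54 CPM in Cnsi IFNγ. In 786-0, PECAM1 averaged 0.156 CPM in Cnsi and 0.709 CPM in Cnsi IFNγ. CD14 averaged 0.423 and 0.395 CPM, PTPRC 0.079 and 0.074 CPM, and ALB 0.200 and 0.224 CPM, so that the shift lay mostly in PECAM1. The part of these markers in the results was not tested. Total counts were 19256316 to 27907526 per library for A-498 and 26807875 to 30350461 for 786-0. In the libraries labelled 786-0, 1475 gene rows that held over 1000 counts across A-498 were at 0 throughout, ACTB among them, and only 1.29% of these rows carried the same identifier version as GENCODE 44, against 76.2% of all rows. A row at 0 in every 786-0 library is therefore given as not measured there. Among the 31 genes this applied to FDPS, HSD17B7 and DHCR7, and among the renal markers to PAX2 and NDRG1.

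IFNγ lowered the sterol and fatty acid genes broadly in the libraries labelled A-498, while in those labelled 786-0 none of the enzymes was called and INSIG1 and STARD4 rose. In bulk RNA, fewer expressing cells and less RNA per cell cannot be told apart. A gene was called higher or lower where edgeR's quasi-likelihood test, adjusted over all genes tested, gave an adjusted p under 0.05 and the log2 fold change exceeded 0.5 in size. In A-498, IFNγ against no IFNγ in Cnsi gave 21 of 31 genes called lower and 1, CH25H, called higher. CH25H reached the count minimum for testing only through its IFNγ libraries, so that its call is not used as support. Of all 20916 genes tested, 18.5% were called lower and 18.2% higher. The median log2 fold change of the 31 genes was -0.92, beside -0.03 over all genes tested. With PD-L1 silenced, the same IFNγ comparison gave 23 of 31 called lower and CH25H higher, with 15.9% and 17.6% of all genes called lower and higher. With CH25H left out, the 21 genes called lower in Cnsi were all among the 23 called lower in PD-L1si. ACAT2 and CYP51A1 were the additions. These 2 comparisons share no library, and the matching overlap over all genes called was not computed. All 24 enzymes lay below their control at an adjusted p under 0.05 in both IFNγ comparisons in A-498, where 31.1% (Cnsi) and 28.5% (PD-L1si) of all genes did.

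**Figure D2:**
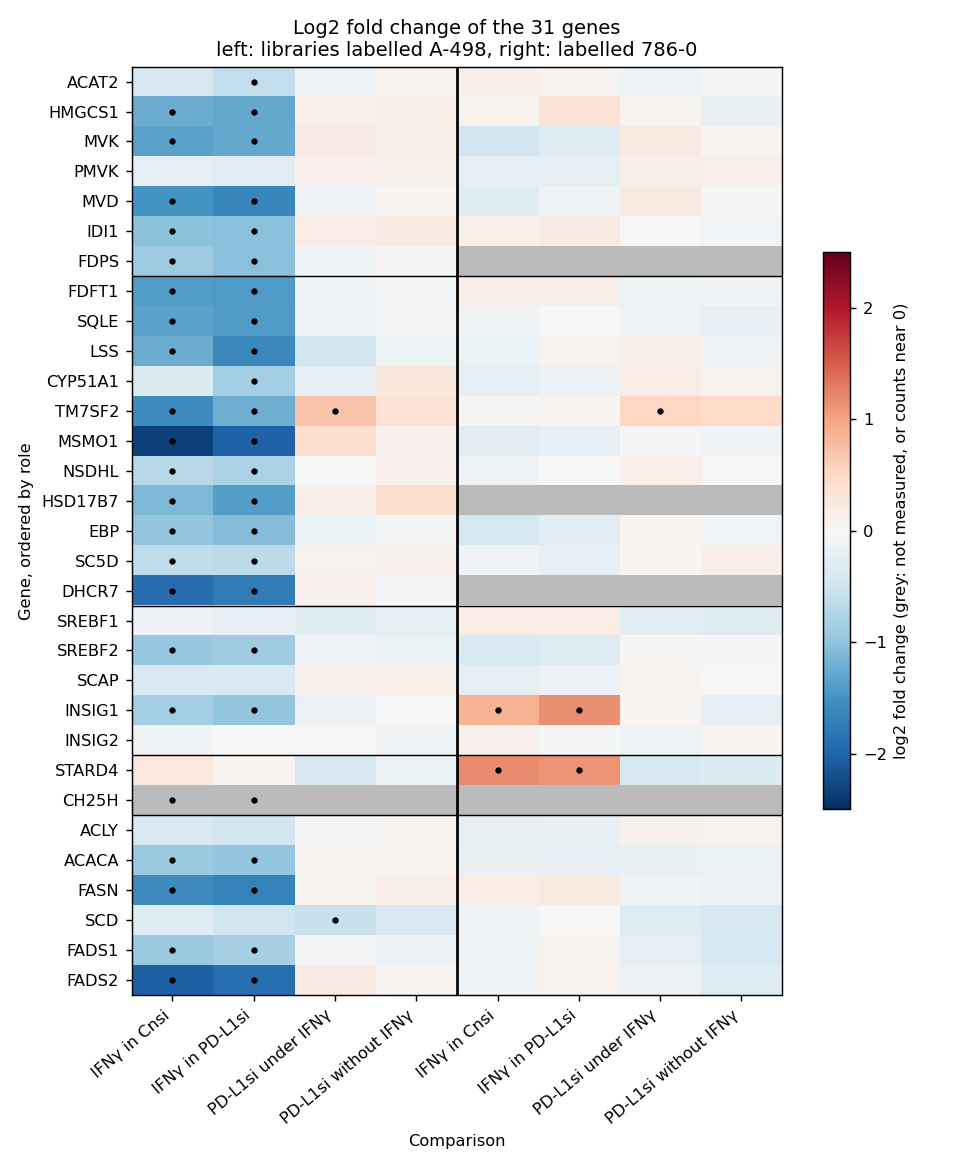
Log2 fold change of each gene (rows, ordered by role, lines dividing the mevalonate pathway, sterol branch, SREBP regulators, sterol transport and oxysterol, and fatty acid groups) in the IFNγ and PD-L1si comparisons (columns) of each line, with a dot where the gene was called and grey where a gene was not measured or had counts near 0. The 2 leftmost columns are blue for nearly every enzyme, and the matching columns of the libraries labelled 786-0 are pale except for INSIG1 and STARD4.

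The mevalonate pathway carries acetyl-CoA to farnesyl diphosphate, and 5 of its 7 enzymes were called lower with IFNγ in A-498 Cnsi. Levels are CPM scaled by TMM in each of the 3 libraries, and log2 fold changes are given with their standard errors. Whether the libraries of 2 groups overlapped was not counted over all genes, so that it describes only the gene named. Gene positions are on GRCh38. HMGCS1, which makes HMG-CoA, measured 119, 119.9 and 110.4 CPM in Cnsi and 48.5, 50.4 and 49.2 CPM in Cnsi IFNγ, a log2 fold change of -1.24 ± 0.054. MVK, mevalonate kinase, measured 21.5, 19.8 and 22.3 CPM in Cnsi and 7.97, 8.07 and 9.14 CPM in Cnsi IFNγ, a log2 fold change of -1.34 ± 0.080. MVD, which decarboxylates mevalonate diphosphate, measured 65.7, 67.4 and 66.7 CPM in Cnsi and 24.4, 22.5 and 24.2 CPM in Cnsi IFNγ, a log2 fold change of -1.49 ± 0.051. MVD kept 35.5% of its control mean. IDI1, the isomerase of the isoprenoid units, measured 57.0, 53.9 and 52.3 CPM in Cnsi and 25.5, 28.9 and 25.7 CPM in Cnsi IFNγ, a log2 fold change of -1.02 ± 0.059. FDPS, the farnesyl diphosphate synthase, measured 131, 129 and 119.8 CPM in Cnsi and 65.9, 70.1 and 66.3 CPM in Cnsi IFNγ, a log2 fold change of -0.90 ± 0.045. IDI1 kept 49.1% and FDPS 53.4% of the control mean. ACAT2, which makes acetoacetyl-CoA, measured 71.2, 64.5 and 58.9 CPM in Cnsi and 48.7, 52.0 and 47.2 CPM in Cnsi IFNγ, a log2 fold change of -0.40 ± 0.065. PMVK, phosphomevalonate kinase, measured 24.3, 24.6 and 24.7 CPM in Cnsi and 21.1, 20.4 and 21.2 CPM in Cnsi IFNγ, a log2 fold change of -0.23 ± 0.061. ACAT2 and PMVK also lay lower with IFNγ, at adjusted p of 6.19e-06 and 0.00129 in the same test (edgeR), but below the fold set for a call. FDPS has processed copies elsewhere in the genome, so that its level depends on how reads were assigned.

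The sterol branch converts farnesyl diphosphate to cholesterol, and 10 of its 11 enzymes were called lower with IFNγ in A-498 Cnsi. The first steps, through squalene to lanosterol, were all called lower. FDFT1, squalene synthase, measured 96.4, 93.8 and 90.0 CPM in Cnsi and 33.8, 37.1 and 36.1 CPM in Cnsi IFNγ, a log2 fold change of -1.39 ± 0.049. SQLE, squalene epoxidase, measured 129, 124 and 122 CPM in Cnsi and 53.4, 48.1 and 46.7 CPM in Cnsi IFNγ, a log2 fold change of -1.34 ± 0.049. LSS, lanosterol synthase, measured 123, 116 and 119 CPM in Cnsi and 49.6, 50.4 and 51.9 CPM in Cnsi IFNγ, a log2 fold change of -1.24 ± 0.049. FDFT1, SQLE and LSS kept 38.2%, 39.6% and 42.4% of their control means. MSMO1, the C4-methyl sterol oxidase at chr4:165327667-165343164 (+), fell furthest of the 31 genes. It measured 176, 171 and 159 CPM in Cnsi and 32.0, 36.5 and 31.5 CPM in Cnsi IFNγ, a log2 fold change of -2.33 ± 0.053 with an adjusted p of 1.41e-29 (edgeR), and kept 19.8% of its control mean.

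The enzymes that act around and after MSMO1 fell by unequal amounts. NSDHL, the C4 decarboxylating dehydrogenase, measured 47.7, 48.2 and 45.1 CPM in Cnsi and 30.6, 27.7 and 29.1 CPM in Cnsi IFNγ, a log2 fold change of -0.69 ± 0.053. HSD17B7, the 3-ketosteroid reductase of this branch, measured 14.1, 13.3 and 15.2 CPM in Cnsi and 6.41, 7.10 and 6.01 CPM in Cnsi IFNγ, a log2 fold change of -1.12 ± 0.086. The dehydrogenase and the reductase work on the same C4 demethylation as MSMO1, and both had smaller log2 fold changes than it did. TM7SF2, a sterol C14 reductase, measured 7.30, 6.60 and 5.78 CPM in Cnsi and 1.63, 2.29 and 2.69 CPM in Cnsi IFNγ, a log2 fold change of -1.58 ± 0.15. EBP, the sterol isomerase, measured 23.5, 20.6 and 21.3 CPM in Cnsi and 11.0, 11.5 and 11.0 CPM in Cnsi IFNγ, a log2 fold change of -0.96 ± 0.071. TM7SF2 overlaps VPS51 on the same strand and is uncertain, since its row held 1549 counts over the 12 libraries and that of VPS51 14120. SC5D, the lathosterol oxidase, measured 66.9, 64.4 and 59.6 CPM in Cnsi and 40.6, 42.8 and 38.9 CPM in Cnsi IFNγ, a log2 fold change of -0.64 ± 0.054. DHCR7, which makes cholesterol from 7-dehydrocholesterol, measured 119, 111 and 112 CPM in Cnsi and 29.2, 32.8 and 29.1 CPM in Cnsi IFNγ, a log2 fold change of -1.90 ± 0.058. DHCR7 at the end of the branch was second only to MSMO1 among the sterol enzymes. CYP51A1, the lanosterol demethylase, measured 5.14, 4.89 and 5.10 CPM in Cnsi and 3.52, 4.07 and 4.14 CPM in Cnsi IFNγ, a log2 fold change of -0.37 ± 0.12. CYP51A1 was the 1 sterol enzyme not called, and its level is uncertain, since it overlaps 2 annotated genes on the same strand and its row held 1358 counts over the 12 libraries. Among the 21 genes called lower, the largest adjusted p was 1.13e-11, of TM7SF2 (edgeR). HSD17B7 has a near copy in the genome and is uncertain for the same reason as FDPS.

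Summed over the 18 mevalonate and sterol enzymes, the level in A-498 was 1297, 1251 and 1209 CPM in Cnsi and 533.9, 552.9 and 530.0 CPM in Cnsi IFNγ. With PD-L1 silenced the sums were 1293, 1305 and 1299.8 CPM without IFNγ and 527, 545 and 536 CPM with it. The 2 groups with IFNγ overlapped each other and lay far below both groups without it. In the libraries labelled 786-0, the 15 of these enzymes that were measured summed to 828, 800.4 and 849 CPM in Cnsi and 734, 826 and 808 CPM in Cnsi IFNγ, which overlapped.

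**Figure D3:**
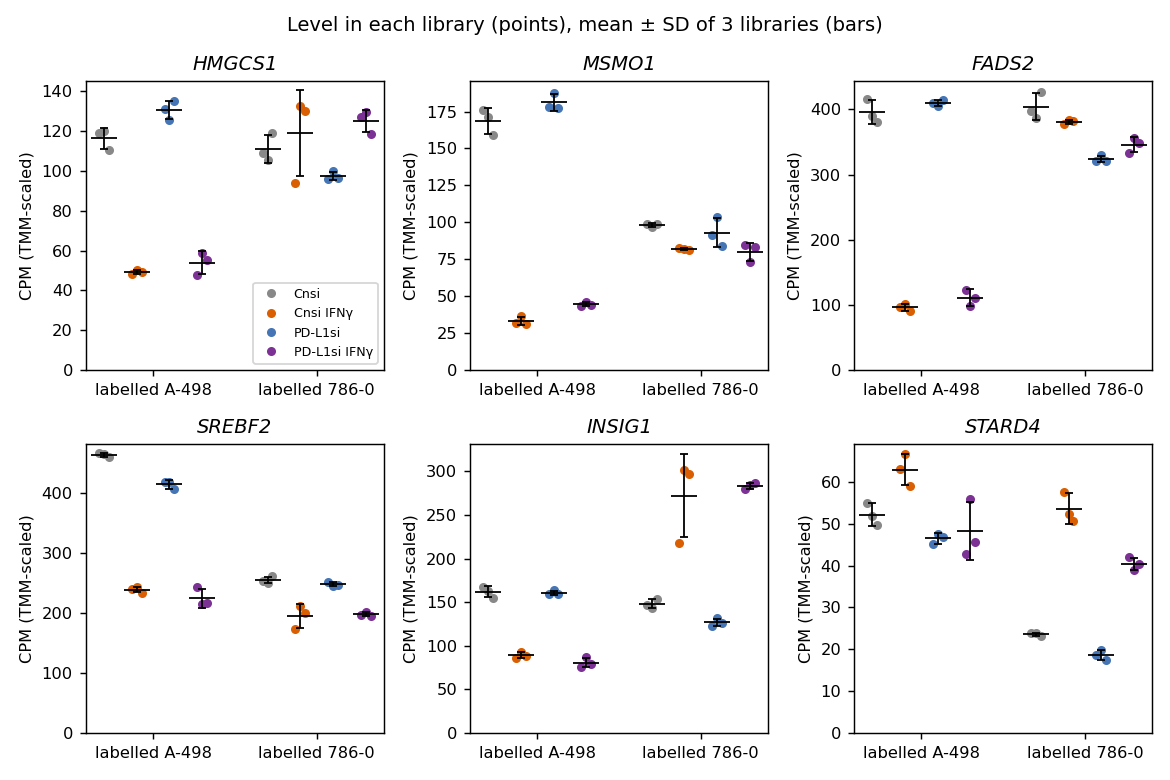
CPM of 6 genes in every library (points), with the mean and SD of the 3 libraries of each group (bars), for the libraries labelled A-498 and 786-0. HMGCS1, MSMO1, FADS2 and SREBF2 fall with IFNγ in A-498 with both siRNAs, and INSIG1 falls in A-498 and rises in 786-0.

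Of the 6 genes of fatty acid synthesis and desaturation, 4 were called lower with IFNγ in A-498 Cnsi. ACLY, which supplies cytosolic acetyl-CoA from citrate, measured 372, 359 and 357 CPM in Cnsi and 279, 279 and 274 CPM in Cnsi IFNγ, a log2 fold change of -0.39 ± 0.038. ACACA, acetyl-CoA carboxylase 1, measured 119.9, 120.1 and 113 CPM in Cnsi and 58.3, 65.8 and 62.2 CPM in Cnsi IFNγ, a log2 fold change of -0.92 ± 0.047. FASN, fatty acid synthase, measured 329, 304 and 339 CPM in Cnsi and 106, 103 and 115 CPM in Cnsi IFNγ, a log2 fold change of -1.58 ± 0.057. ACLY was short of the fold for a call. SCD, the stearoyl-CoA desaturase that makes oleate, measured 1525, 1495 and 1462 CPM in Cnsi and 1153, 1254 and 1174 CPM in Cnsi IFNγ, a log2 fold change of -0.32 ± 0.038. FADS1, the delta-5 desaturase, measured 287, 285 and 275 CPM in Cnsi and 147, 159 and 141 CPM in Cnsi IFNγ, a log2 fold change of -0.92 ± 0.043. FADS2, the delta-6 desaturase at chr11:61792980-61867354 (+), measured 416, 391 and 381 CPM in Cnsi and 97.3, 101 and 90.2 CPM in Cnsi IFNγ, a log2 fold change of -2.04 ± 0.056 with an adjusted p of 4.64e-23 (edgeR). FADS2 kept 24.3%, FADS1 52.7% and SCD 79.9% of the control mean. FADS2 overlaps FEN1 on the same strand, with 76537 counts in its row over the 12 libraries and 10676 in that of FEN1.

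Of the 5 regulators, SREBF2 and INSIG1 were called lower with IFNγ in A-498 Cnsi. SREBF2 at chr22:41833105-41907306 (+) encodes SREBP2, the factor of the sterol branch. It measured 465, 465 and 459 CPM in A-498 Cnsi and 240.0, 242 and 234 CPM in Cnsi IFNγ, a log2 fold change of -0.96 ± 0.042 with an adjusted p of 1.13e-20 (edgeR). SREBF1, which encodes the SREBP1 isoforms that favor fatty acid genes, measured 185, 182 and 185 CPM and 164, 163 and 171 CPM, a log2 fold change of -0.15 ± 0.050. SREBF2 thus kept 51.5% and SREBF1 90.1% of the control mean. INSIG1 at chr7:155297776-155310235 (+), whose protein retains SCAP and whose gene is itself an SREBP target, measured 168, 163 and 155 CPM and 86.4, 93.3 and 88.1 CPM, a log2 fold change of -0.86 ± 0.046. INSIG2, the paralog of INSIG1, measured 34.5, 33.9 and 32.97 CPM and 29.7, 33.3 and 31.7 CPM, where the groups overlapped and the log2 fold change of -0.10 ± 0.076 had an adjusted p of 0.281 (edgeR). SCAP, the escort of the SREBPs, measured 99.6, 97.9 and 102 CPM and 75.3, 76.0 and 80.0 CPM, a log2 fold change of -0.37 ± 0.052. Within A-498, then, the precursor gene SREBF2 and the retention gene INSIG1 were called lower, SREBF1 and SCAP lay lower by less than the fold for a call, and no difference was detected for INSIG2.

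STARD4, a carrier that moves cholesterol between membranes and is encoded at chr5:111496033-111512590 (-), measured 55.1, 51.9 and 49.7 CPM in A-498 Cnsi and 63.0, 66.6 and 59.1 CPM in Cnsi IFNγ. Its log2 fold change of 0.27 ± 0.066 was positive, with an adjusted p of 0.0008 (edgeR), and short of the fold for a call. CH25H, cholesterol 25-hydroxylase, at chr10:89205629-89207317 (-), rested on few reads. Its counts in A-498 were 0, 0 and 1 in Cnsi, 9, 8 and 9 in Cnsi IFNγ, 0 in each PD-L1si library and 7, 6 and 4 in PD-L1si IFNγ. The groups did not overlap, but the single read of the controls lay in Cnsi replicate 3, without which the controls held none. Relative to the library totals, the IFNγ level was 25.2 times that of Cnsi, with an exact 95% interval of 4.14 to 1030 that covers counting error only. With PD-L1 silenced the IFNγ level was 6.58 times a floor of 3 counts over the group. This ratio leaves out the counting error of the IFNγ counts. CH25H was called higher in both comparisons by edgeR. It reached the 10 counts needed for testing only through the groups with IFNγ, so that these calls lend no support. In 786-0 the sums were 1 count in Cnsi, 1 in Cnsi IFNγ and 0 in both groups with PD-L1 silenced, under the floor throughout, and CH25H was not tested there.

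With PD-L1 silenced, the libraries labelled A-498 gave the same order at the top. MSMO1 measured 178, 188 and 177 CPM in PD-L1si and 43.5, 46.0 and 44.04 CPM in PD-L1si IFNγ, a log2 fold change of -2.03 ± 0.051. FADS2 measured 409, 406 and 414 CPM and 124, 98.8 and 112 CPM, with -1.88 ± 0.056 on the log2 scale. DHCR7 measured 106, 116 and 109.5 CPM and 35.6, 29.1 and 33.6 CPM, with -1.75 ± 0.058. MSMO1, FADS2 and DHCR7 kept 24.6%, 27.2% and 29.6% of their PD-L1si means. SREBF2 measured 418, 418 and 405 CPM and 242, 214 and 217 CPM, with -0.88 ± 0.042, and INSIG1 measured 159.5, 163 and 159 CPM and 76.1, 86.8 and 79.2 CPM, with -0.99 ± 0.047. The 2 additions were ACAT2, at 65.3, 70.9 and 72.1 CPM and 41.0, 50.2 and 44.3 CPM, and CYP51A1, at 6.59, 6.15 and 5.63 CPM and 3.49, 3.11 and 3.54 CPM. Their log2 fold changes were -0.62 ± 0.066 and -0.85 ± 0.12. SCD, at -0.50 ± 0.039, sat at the fold for a call and was called by DESeq2. INSIG2 and STARD4 overlapped between the groups, STARD4 at 45.1, 47.6 and 46.9 CPM and 42.9, 56.0 and 45.7 CPM, with a log2 fold change of 0.05 ± 0.069 and an adjusted p of 0.588 (edgeR).

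Divided by exonic length, the members spanned a wide range in A-498 Cnsi. SCD stood highest at 285 CPM per kb, followed by ACLY at 69.7, MSMO1 at 59.1, SREBF2 at 57.5 and INSIG1 at 44.3. The lowest, apart from CH25H, were MVK at 2.35, TM7SF2 at 1.92 and CYP51A1 at 1.21 CPM per kb. In A-498 Cnsi IFNγ, MSMO1 stood at 11.7 CPM per kb, below SREBF2 at 29.6 and INSIG1 at 24.5. In 786-0 Cnsi the order began with SCD at 560.1, ACLY at 163 and FASN at 59.1 CPM per kb, and SREBF1 at 46.1 stood above SREBF2 at 31.6. In A-498 Cnsi the order of these SREBP genes was the opposite, with SREBF1 at 22.4 CPM per kb. Base levels were not tested between the lines, since the rows and instruments differ.

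In the libraries labelled 786-0, IFNγ in Cnsi gave 2 of the 27 tested genes called higher, INSIG1 and STARD4, and 0 called lower by edgeR or DESeq2, with 12 lower at an unadjusted p under 0.05. Of all 21209 genes tested, 11.1% were called higher and 7.39% lower. INSIG1 measured 147, 144 and 154 CPM in Cnsi and 218, 302 and 297 CPM in Cnsi IFNγ, a log2 fold change of 0.88 ± 0.099 with an adjusted p of 1.75e-05 (edgeR). STARD4 measured 23.8, 23.9 and 23.2 CPM and 57.7, 52.5 and 50.6 CPM, a log2 fold change of 1.18 ± 0.061 with an adjusted p of 1.85e-14 (edgeR). Neither overlapped between the groups, and Cnsi IFNγ replicate 1 was the lowest of its 3 for INSIG1. Without it the log2 fold change of INSIG1 was 1.01. The same library was also lowest for HMGCS1, at 94.0, 133 and 129.9 CPM in Cnsi IFNγ against 109, 105 and 119 CPM in Cnsi, and for SQLE, at 78.9, 106 and 105 CPM against 101, 99.2 and 107 CPM. For these 2 enzymes the groups overlapped, with log2 fold changes of 0.10 ± 0.11 and -0.08 ± 0.088.

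By the adjusted p alone, 5 of the 27 lay higher and 10 lower in 786-0, where 21.7% and 17.2% of all genes did. The median log2 fold change of the 27 was -0.10. MVK had the most negative value, at 26.2, 24.7 and 26.6 CPM in Cnsi and 15.9, 18.8 and 20.8 CPM in Cnsi IFNγ with a log2 fold change of -0.48 ± 0.084. Without Cnsi replicate 2 (-0.52) or Cnsi IFNγ replicate 3 (-0.58), MVK was called lower. EBP followed, at 16.7, 16.8 and 16.2 CPM and 12.2, 12.2 and 12.3 CPM with -0.43 ± 0.073 on the same scale. SREBF2 measured 253, 249 and 260.4 CPM and 172, 212 and 200.2 CPM, a log2 fold change of -0.39 ± 0.055 with an adjusted p of 2.59e-06 (edgeR). SREBF2 thus lay lower with IFNγ in both lines, by less in 786-0. SREBF1 measured 385, 389 and 365 CPM and 440.0, 419.9 and 429 CPM, a log2 fold change of 0.18 ± 0.048, and so lay above its control in 786-0. INSIG2 measured 32.5, 30.8 and 32.7 CPM and 34.0, 33.5 and 36.4 CPM, with a log2 fold change of 0.11 ± 0.057. MSMO1, which fell furthest in A-498, measured 98.6, 97.1 and 99.0 CPM and 83.0, 82.0 and 81.4 CPM here, without overlap and with a log2 fold change of -0.26 ± 0.062. FADS2 measured 398, 386 and 427 CPM and 378, 384 and 382 CPM, and its log2 fold change of -0.08 ± 0.046 had an adjusted p of 0.164 (edgeR), although the groups did not overlap. FASN measured 559, 555 and 539 CPM and 589.6, 656 and 638 CPM, a log2 fold change of 0.19 ± 0.053 in the opposite direction to A-498. The other 15 genes tested lay between -0.30 (MVD) and 0.18 (FDFT1) on the log2 scale.

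With PD-L1 silenced, IFNγ in 786-0 again gave INSIG1 and STARD4 called higher and 0 of 27 called lower by edgeR or DESeq2, with 9 lower at an unadjusted p under 0.05. The background was 11% and 7.45% of all genes called higher and lower. INSIG1 measured 122, 131 and 126 CPM in PD-L1si and 279.6, 284 and 286 CPM in PD-L1si IFNγ, a log2 fold change of 1.16 ± 0.099 with an adjusted p of 1.44e-06 (edgeR). STARD4 measured 18.7, 19.8 and 17.4 CPM and 42.0, 39.0 and 40.4 CPM, a log2 fold change of 1.12 ± 0.064 with an adjusted p of 1.27e-13 (edgeR). HMGCS1 measured 95.9, 99.8 and 96.3 CPM and 127, 129 and 119 CPM with 0.36 ± 0.11 on the log2 scale, past the adjusted p but not the fold. The INSIG1 and STARD4 differences thus appeared in both sets of 786-0 libraries, which share no sample.

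The IFNγ effect in Cnsi was then compared between the lines in one fit of all 24 libraries. Of the 27 genes measured in both lines, 20 had a higher log2 fold change in 786-0 than in A-498 past the call and 0 had a lower one, also 0 by DESeq2 and at an unadjusted p under 0.05, whereas 15.1% and 13.2% of the 17999 genes tested were called in these directions. The median difference was 0.81 for the 27 genes and 0.04 for all genes tested. The difference was 2.07 ± 0.087 for MSMO1, 1.95 ± 0.077 for FADS2 and 1.77 ± 0.083 for FASN. For MSMO1 the fall was the larger in A-498, for FADS2 the 786-0 value did not pass the test, and FASN lay lower in A-498 and higher in 786-0, there short of the fold for a call. For INSIG1 it was 1.73 ± 0.11 with an adjusted p of 1.45e-11 (edgeR), and the gene was called lower in A-498 and higher in 786-0. For STARD4 it was 0.90 ± 0.098 and for SREBF2 0.56 ± 0.072. The 7 genes that were not called were ACLY, CYP51A1, INSIG2, PMVK, SCAP, SCD and SREBF1, with differences from -0.02 (PMVK) to 0.32 (SREBF1). PMVK, at -0.02 ± 0.082, kept 85.2% of its control mean in A-498 and 84.4% in 786-0. FDPS, HSD17B7, DHCR7 and CH25H could not be compared.

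**Figure D4:**
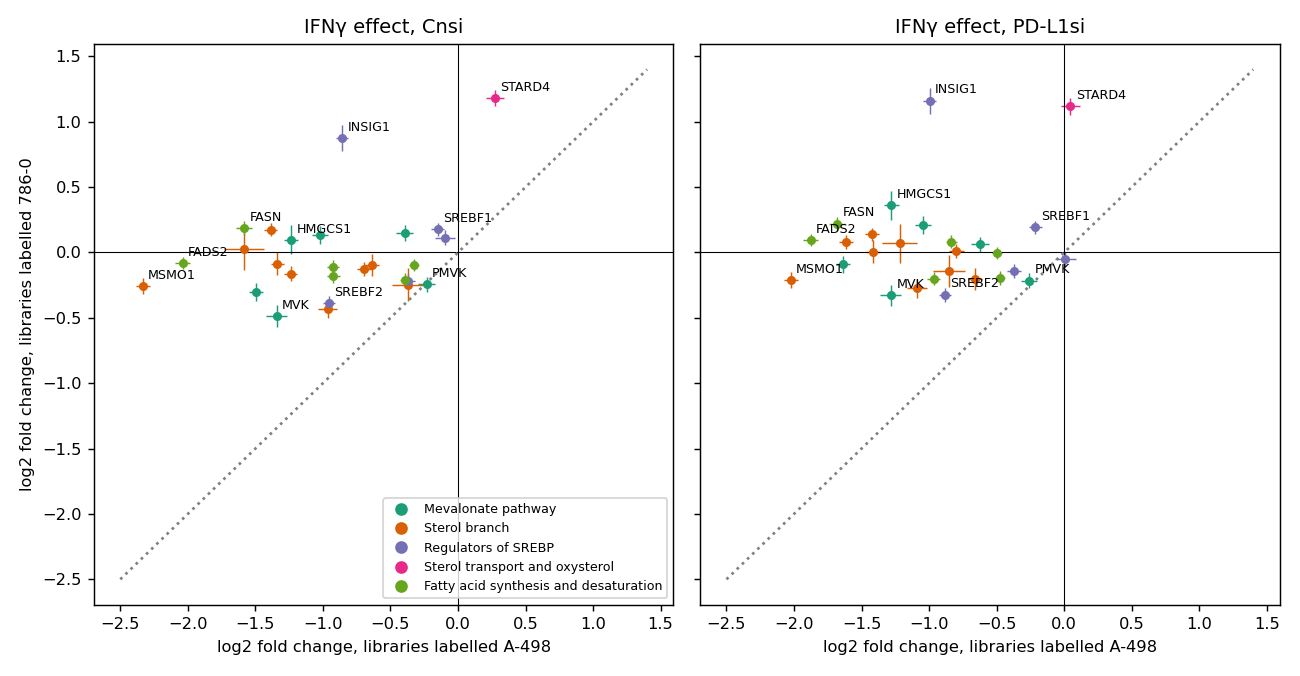
Log2 fold change with IFNγ of the 27 genes measured in both lines, libraries labelled A-498 on the horizontal and 786-0 on the vertical axis, with standard errors as bars, in Cnsi (left) and PD-L1si (right). Most enzymes lie left of 0 on the horizontal axis and near 0 on the vertical, away from the dotted line of equal change, and INSIG1 and STARD4 stand apart at the top.

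PD-L1 silencing was compared with Cnsi within each line. Under IFNγ in A-498, PD-L1si against Cnsi gave 1 of 31 called higher, TM7SF2, and 1 called lower, SCD, beside 4.36% and 5.75% of all genes, so that the members' shares were near the background. By the adjusted p alone 4 lay higher and 5 lower, with 16.2% and 17.8% of all genes, and 7 and 8 by the unadjusted p. SCD measured 1153, 1254 and 1174 CPM in Cnsi IFNγ and 804, 812 and 816 CPM in PD-L1si IFNγ, a log2 fold change of -0.56 ± 0.039 with an adjusted p of 4.35e-14 (edgeR). TM7SF2 measured 1.63, 2.29 and 2.69 CPM and 4.10, 2.74 and 3.88 CPM, a log2 fold change of 0.72 ± 0.17 with an adjusted p of 0.00104 (edgeR). Neither overlapped between the groups, but TM7SF2 rested on few reads. Below the fold for a call, LSS had a log2 fold change of -0.49 ± 0.054 from 49.6, 50.4 and 51.9 CPM to 38.8, 32.7 and 36.4 CPM, and it was called lower by DESeq2, with RLE scaling and with no filter, at -0.50 in each. MSMO1 had 0.41 ± 0.058, from 32.0, 36.5 and 31.5 CPM to 43.5, 46.0 and 44.04 CPM, still well under the 178, 188 and 177 CPM of PD-L1si without IFNγ. STARD4 had -0.39 ± 0.068 on the log2 scale and SREBF1 -0.30 ± 0.051. The median of the 31 was -0.03, beside 0.01 for all genes tested.

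Without IFNγ in A-498, 0 of the 31 genes were called with PD-L1si by edgeR or DESeq2, beside 2.87% of all genes called higher and 5.6% lower. By the adjusted p alone 6 lay higher and 4 lower, with 12.8% and 18.1% of all genes, and 13 and 6 by the unadjusted p. SCD was again lower, at 1525, 1495 and 1462 CPM in Cnsi and 1117, 1171 and 1141 CPM in PD-L1si, with -0.39 ± 0.038 on the log2 scale. HSD17B7 lay higher, at 14.1, 13.3 and 15.2 CPM and 18.9, 19.4 and 18.7 CPM, with 0.42 ± 0.070. In 786-0 under IFNγ, PD-L1si gave 1 of 27 called higher, TM7SF2, and 0 lower by edgeR or DESeq2 (9 lower at an unadjusted p under 0.05), beside 1.29% and 1.74% of all genes. TM7SF2 measured 3.33, 2.81 and 3.63 CPM in Cnsi IFNγ and 5.14, 4.31 and 4.51 CPM in PD-L1si IFNγ, a log2 fold change of 0.51 ± 0.16 with an adjusted p of 0.0301 (edgeR). This call was lost without Cnsi IFNγ replicate 2 (log2 fold change 0.42), without PD-L1si IFNγ replicate 1 (0.44) and without PD-L1si IFNγ replicate 3 (0.53). STARD4 had -0.41 ± 0.059 and SCD -0.31 ± 0.048 in the same comparison, both past the adjusted p only.

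Without IFNγ in 786-0, 0 of 27 were called with PD-L1si by edgeR or DESeq2, beside 1.19% of all genes called higher and 1.63% lower. By the adjusted p alone 1 lay higher and 6 lower, with 4.79% and 8.04% of all genes, and 2 and 9 by the unadjusted p. Without Cnsi replicate 2 (log2 fold change 0.71) or PD-L1si replicate 2 (0.56), TM7SF2 was called higher. The desaturases were among the 6. SCD measured 2925, 2815 and 3073 CPM in Cnsi and 2144, 2307 and 2199.9 CPM in PD-L1si, with -0.41 ± 0.048 on the log2 scale, FADS1 had -0.44 ± 0.050 and FADS2 -0.32 ± 0.046. SCD and SREBF1 lay lower with PD-L1si at an adjusted p under 0.05 in both lines, with and without IFNγ, with the log2 fold change of SREBF1 between -0.30 and -0.23. The siRNA comparisons with and without IFNγ share no library, but the siRNA comparison under IFNγ shares Cnsi IFNγ with the IFNγ comparison in Cnsi.

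Whether IFNγ acted differently with the PD-L1 pool, which lowered CD274 RNA without removing it, was tested as an interaction within each line. In A-498, 0 of 31 genes were called by edgeR or DESeq2, beside 1.81% of all genes called higher and 0.645% lower. By the adjusted p alone 1 lay higher and 2 lower, with 6.34% and 2.74% of all genes, and 2 and 8 by the unadjusted p. Past the adjusted p were LSS at -0.38 ± 0.071, with the larger IFNγ fall in PD-L1si, MSMO1 at 0.31 ± 0.074, with the smaller fall in PD-L1si, and SCD at -0.17 ± 0.054. Without Cnsi IFNγ replicate 1 (-0.56) or PD-L1si replicate 3 (also -0.56), CYP51A1 was called. For LSS the adjusted p was 0.000281 and for MSMO1 0.00451 (edgeR). In 786-0, 0 of 27 were called by edgeR or DESeq2 and 0 passed the adjusted p alone (4 higher and 0 lower by the unadjusted p), where 0.0377% and 0.0613% of all genes were called higher and lower, and 0.113% and 0.104% passed the adjusted p alone. The largest 786-0 value was 0.29 ± 0.14 for INSIG1. The siRNA effect under IFNγ differed between the lines past the call for 1 of 27 genes, LSS, by 0.66 ± 0.081 with an adjusted p of 9.16e-08 (edgeR), beside 2.96% of 17999 genes called higher and 2.64% lower. Without A-498 Cnsi IFNγ replicate 2, MSMO1 (-0.51) was called as well, and without 786-0 Cnsi IFNγ replicate 2, CYP51A1 (0.55).

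Other lipid genes were listed by role and read in the same fits, with the background of each comparison as given above. In A-498 Cnsi with IFNγ, among 8 tested genes of LXR signaling and sterol efflux 1 was called higher and 1 lower. ABCA1, the cholesterol exporter, had a log2 fold change of 1.10 ± 0.044 and APOE, an apolipoprotein that accepts cholesterol, -1.39 ± 0.47. In 786-0, 0 of 7 were called by edgeR, with 5 higher by the adjusted p alone and 6 by the unadjusted p. Among 13 tested genes of cholesterol uptake, release and storage, 1 was called higher and 2 lower in A-498. GRAMD1B, a transporter of plasma membrane cholesterol to the endoplasmic reticulum, rose in both lines, by 4.15 ± 0.14 in A-498 and 5.33 ± 0.24 in 786-0, and its relative GRAMD1A had the largest fall of the list in A-498 (-0.75 ± 0.056). In 786-0, 2 of 12 were called higher, the second being SOAT1, which esterifies cholesterol. Of 12 genes of SREBP cleavage and sterol-regulated degradation, 0 were called higher (2 by the adjusted p alone, as by the unadjusted p) and 3 lower in A-498, led by TMEM97, a sterol-regulated membrane protein, at -1.38 ± 0.060. In 786-0, ERLIN1, a protein of sterol-regulated degradation, was called higher (0.55 ± 0.058) and TMEM97 lower (-0.59 ± 0.054) among 10.

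Fatty acid elongation and activation held 16 genes, of which 1 was called higher and 6 lower with IFNγ in A-498 Cnsi. ACSL5, a long-chain acyl-CoA synthetase, rose by 5.16 ± 0.092 and TECR, the last enzyme of the elongation cycle, had the largest fall at -1.35 ± 0.057. ACSL5 rose in 786-0 too, by 7.73 ± 0.12, where ACSL1 was the only other call among 15. Of the 10 non-sterol isoprenoid genes, 2 were called higher and 3 lower in A-498, with GGPS1, the geranylgeranyl diphosphate synthase, at 0.89 ± 0.081 and FNTB, the beta subunit of farnesyltransferase, at -0.93 ± 0.12, and 0 of 9 in 786-0 by edgeR, with 2 higher and 1 lower by the adjusted p alone and 2 and 2 by the unadjusted p. Of the 10 triglyceride and lipid droplet genes, 1 was called higher and 3 lower in A-498, where the droplet coat genes PLIN2 and PLIN3 had 0.88 ± 0.038 and -1.04 ± 0.044. In 786-0, 1 of 9 was called higher and 1 lower, the phosphatidate phosphatase LPIN2 at 0.55 ± 0.051 and HILPDA, an inhibitor of lipolysis, at -1.20 ± 0.15. Of the 10 fatty acid oxidation genes, CPT1A, which admits fatty acids to mitochondria, was the only call in either line, at 2.03 ± 0.073 in A-498 and 0.65 ± 0.054 in 786-0. Of the other oxysterol and bile acid enzymes, HSD3B7 was called higher in both lines (1.66 ± 0.049 and 1.72 ± 0.046) and CYP7B1 lower in A-498 (-1.32 ± 0.12). The list medians in A-498 ran from -0.05 for LXR and sterol efflux to -0.38 for elongation and activation, apart from 3 tested oxysterol enzymes at -0.80, and those of the mevalonate and sterol enzymes were -1.02 and -1.24.

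**Figure D5:**
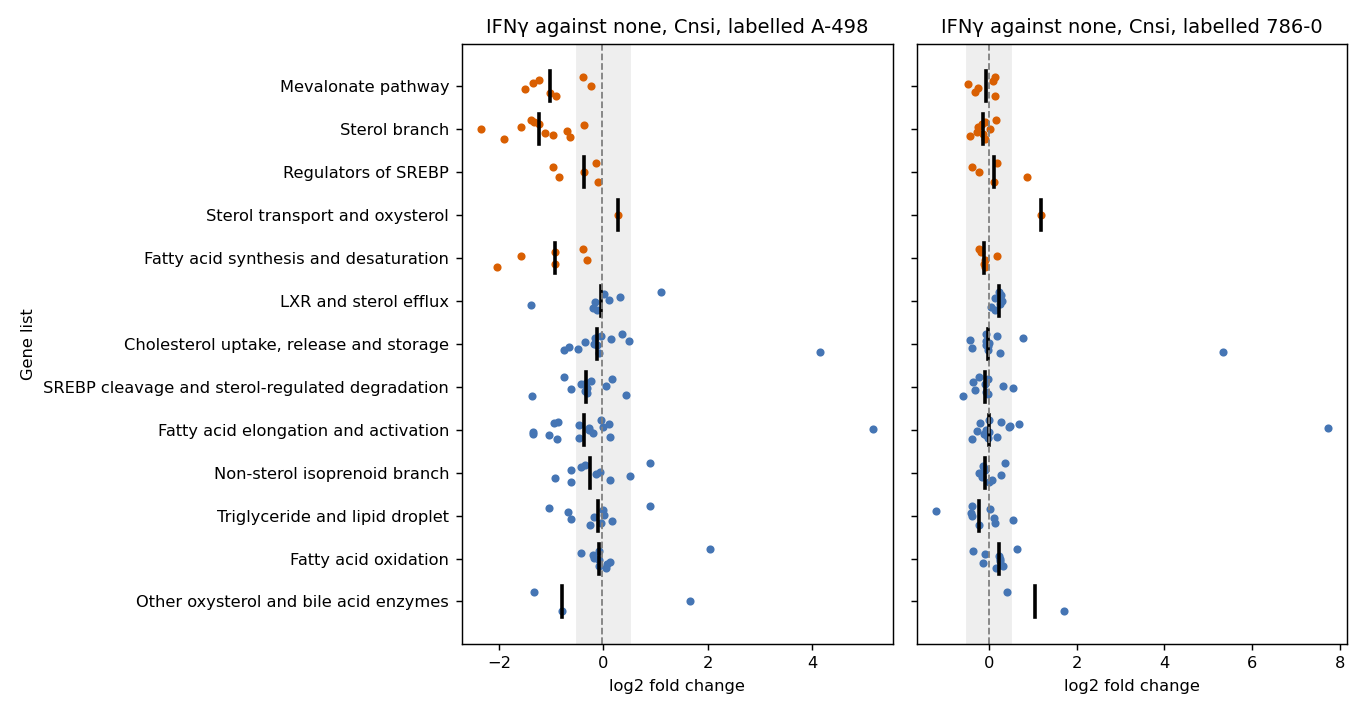
Log2 fold change with IFNγ in Cnsi of each gene of the synthesis groups (orange) and of the other lipid lists (blue), with each list's median (black bar), the median of all genes tested (dashed line) and the range inside which no gene is called (grey), for the libraries labelled A-498 (left) and 786-0 (right). CH25H is left out. The medians of the mevalonate and sterol groups in A-498 lie left of those of the other lists with over 3 genes.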

How the data were processed

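RNA-Seq read counts of 24 libraries (lines labelled A-498 and 786-0, 4 groups, 3 replicates) were analysed. The authors demultiplexed reads with bcl2fastq 2.19.0, trimmed them with Trimmomatic 0.36.6, aligned them with HISAT2 2.1.0 to GRCh38 and counted them per gene by strand with featureCounts 1.6.3 on GENCODE 33. The deposited values are raw counts per gene, not normalized. Libraries were poly(A)-selected and stranded. Symbols and positions were matched by gene identifier to GENCODE 44 for 39148 of 39321 rows.

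The 31 genes, the other lists and the tests were chosen with earlier results of these data known. Genes with at least 10 counts over the 3 libraries of any group were tested with the quasi-likelihood test of edgeR 4.0.16 (R 4.3.3, TMM scaling, robust, 1 fit per line with 4 groups), and differences between lines in 1 fit of all 24 libraries. P-values were adjusted by Benjamini-Hochberg over all genes tested, and a call needed an adjusted p under 0.05 and a log2 fold change over 0.5 in size. Every one of the 31 genes was accounted for. Library values were given for those called, for CH25H, INSIG1, INSIG2, SREBF1 and SREBF2, and for other members where they bore on a comparison. Of each other list, the counts and the called gene with the largest log2 fold change in each direction were given, with SOAT1 and ACSL1 named after their values were seen. Levels are TMM-scaled CPM, divided by exonic length where genes are compared. Depths of 19256316 to 30350461 counts set the precision. The interval for CH25H covers counting error only, and the ratio to its floor leaves out the counting error of the IFNγ counts. The fits were tested on simulated data. Alternatives were DESeq2 1.42.0, RLE scaling, 2 other filters, protein-coding genes only, a replicate block, the newer edgeR fit, only the compared groups, and leaving out each library.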

Additional observations from a re-analysis of the deposited data

Results flagged for a closer look

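The IFNγ effect in Cnsi differed between the lines, tested as a difference in 1 fit of all 24 libraries, for 20 of the 27 genes measured in both. Values are the log2 fold change in 786-0 minus that in A-498, with the standard error. Among mevalonate enzymes the differences were HMGCS1 (1.33 ± 0.13), MVD (1.18 ± 0.087), IDI1 (1.15 ± 0.097), MVK (0.85 ± 0.12) and ACAT2 (0.54 ± 0.097). Among sterol branch enzymes they were MSMO1 (2.07 ± 0.087), TM7SF2 (1.603 ± 0.24), FDFT1 (1.56 ± 0.071), SQLE (1.25 ± 0.11), LSS (1.07 ± 0.077), NSDHL (0.56 ± 0.074), SC5D (0.54 ± 0.11) and EBP (0.53 ± 0.099). Among genes of fatty acid synthesis they were FADS2 (1.95 ± 0.077), FASN (1.77 ± 0.083), FADS1 (0.81 ± 0.068) and ACACA (0.74 ± 0.070). For the regulators they were INSIG1 (1.73 ± 0.11) and SREBF2 (0.56 ± 0.072), and for the carrier STARD4 0.90 ± 0.098. INSIG1 alone was called in opposite directions in the 2 lines, and for FASN and FDFT1 the 786-0 value was positive at an adjusted p under 0.05 without reaching the fold for a call. The line and the sequencing instrument cannot be told apart in these differences.

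The effect of PD-L1si under IFNγ differed between the lines for LSS, by 0.66 ± 0.081, lower in A-498 (-0.49) with 786-0 at 0.16, which did not pass the test there (adjusted p 0.0697, edgeR).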

How the results depend on the processing

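No call turned its direction under any alternative run. In A-498, the count of the 31 genes called with IFNγ was 22 in Cnsi (22 to 22 without any 1 library) and 24 in PD-L1si (24 to 25). For PD-L1si it was 2 under IFNγ (2 to 3) and 0 without (0 to 0), and for the interaction 0 (0 to 1), where 1, CYP51A1, was called lower with protein-coding genes only. The cause was not tested. In 786-0 the counts were 2 (2 to 3), 2 (2 to 2), 1 (0 to 1), 0 (0 to 1) and 0 (0 to 0) in the same order. The IFNγ effect differed between lines for 20 genes (17 to 20), for 17 by DESeq2 or RLE scaling and for 15 with no filter on low counts, and the PD-L1si effect for 1 (1 to 2). ACAT2 (0.49, 0.49 and 0.47), EBP (0.48, 0.48 and 0.46) and SC5D (0.49, 0.49 and 0.47) fell under the fold for a call by DESeq2, RLE scaling and no filter, and NSDHL (0.49) and SREBF2 (0.50) by no filter. SCD in PD-L1si with IFNγ (-0.50) and LSS with PD-L1si under IFNγ (-0.50) were called lower in A-498 by DESeq2, RLE scaling and no filter. With no filter or only the 2 groups compared, MVK was called lower in 786-0 (-0.51 in both). With a replicate block the counts were 22, 24, 2, 0 and 0 in A-498, 2, 2, 1, 0 and 0 in 786-0 and 20 and 1 between lines, so that the block moved none. Of 18 pairs of same-numbered libraries in each line, 3 in A-498 and 8 in 786-0 had a correlation of their deviations over 0.1 (from -0.107 to 0.252 and from -0.262 to 0.298), and no source pairs them. Depth limits CH25H above all, at 44 counts over the 12 A-498 libraries, then TM7SF2 and CYP51A1.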

Other observations

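PD-L1 silencing was read in the other lipid lists as well. Under IFNγ in A-498, where 4.36% of all genes were called higher and 5.75% lower, APOE, an apolipoprotein that carries cholesterol, had a log2 fold change of 1.31 ± 0.50 and the sterol transporter GRAMD1C 0.79 ± 0.17. The standard error of APOE was the largest in this paragraph. Its value here and its fall with IFNγ in Cnsi rest on the same Cnsi IFNγ libraries, so that they are not separate results. The called genes on the lower side were ABCA1 at -0.51 ± 0.043, NPC1, which releases cholesterol from lysosomes, at -0.61 ± 0.037, SOAT1 at -0.55 ± 0.044, the droplet coat gene PLIN2 at -0.62 ± 0.038 and HSD3B7 at -0.73 ± 0.047. The genes named on either side were few of the 82 tested in these lists, beside these background shares. They are given as single genes, not as a result about the lists.

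Without IFNγ in A-498, where 2.87% of all genes were called higher and 5.6% lower, 0 of 82 genes tested in these lists were called higher by edgeR (18 higher at an unadjusted p under 0.05) and 6 lower, namely NPC1 (-0.66 ± 0.037), SOAT1 (-0.85 ± 0.044), ACSL5 (-1.002 ± 0.21), DGAT2 (-0.57 ± 0.11), PLIN2 (-1.19 ± 0.039) and HSD3B7 (-0.68 ± 0.055). The share called lower was thus near the background. In 786-0, 0 of 73 genes tested in these lists were called with PD-L1si by edgeR, with IFNγ (12 higher and 19 lower at an unadjusted p under 0.05) or without it (6 and 21), and PLIN2 had 0.02 ± 0.045 and -0.30 ± 0.045. NPC1 and DGAT2 were named after their values were seen.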
